A study of Mus musculus with 4 samples.

Results

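The regions described here are isolated peaks: autosomal peaks of open chromatin in the Sun1_WT accessibility table with no other peak of that table within 100 kb on either side, measured edge to edge. They number 825 of the 123804 autosomal peaks of that table. The rule uses peak positions in the Sun1_WT library and no count, and it stands in for gene-poor stretches of the genome. A Sun1_KO count was taken from the Sun1_KO peak that overlapped the member by at least 1 bp, because peaks were called in each library by itself.

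CT26 is a colorectal tumour line that arose in the BALB/c strain. For each tumour 1000000 of these cells were placed subcutaneously in the flank and left to grow for 14 days. The 2 groups were Sun1_KO, tumours of cells in which Sun1 had been knocked out, and Sun1_WT, tumours of cells with Sun1 intact; the mice that carried them were not edited in either group. RNA and open chromatin were read from the same nuclei with the 10x Multiome kit, which gave 1 expression library and 1 accessibility library per genotype. How many tumours or cell clones entered each library, and how Sun1 was knocked out, the sources used here do not give.

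SUN1 spans the inner nuclear membrane, binds the lamina on the nuclear side and joins nesprins of the outer membrane in the LINC complex, which links the nucleus to the cytoskeleton. Gene-poor, late-replicating chromatin tends to lie against the lamina in large lamina-associated domains, where long genes of neural adhesion and synapses, olfactory receptor clusters and deserts around developmental genes are common and are mostly silent outside their own tissues. An accessible site alone in such a stretch may be a distal element, a lone promoter or the site of a structural protein, and its position alone does not tell these apart.

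The deposited files give peak positions and counts without the DNA of the peaks, so sequence is shown for promoters that an isolated peak overlaps. RefSeq promoters (build GRCm38.p6, 250 bases before to 50 after the start of a gene) were overlapped by 24 members. Of these, 4 are printed 5′ to 3′ because they mark the kinds of isolated promoter met below. The promoter of Ufl1, which encodes the ligase for the ubiquitin-like modifier UFM1 (chr4:25281772-25282071, minus strand), was open in tumour and myeloid nuclei. The promoters of Mgmt, which encodes a DNA repair enzyme that removes alkyl groups from guanine (chr7:136894336-136894635, plus strand), and of P2ry1, a receptor for ADP (chr3:61002535-61002834, plus strand), were open mainly in myeloid nuclei. The promoter of the gene model Gm42018 (chr5:119978302-119978601, plus strand) lies in a peak that was higher in Sun1_KO tumour nuclei. Capitals mark the GC box GGGCGG or its reverse complement CCGCCC.
Ufl1: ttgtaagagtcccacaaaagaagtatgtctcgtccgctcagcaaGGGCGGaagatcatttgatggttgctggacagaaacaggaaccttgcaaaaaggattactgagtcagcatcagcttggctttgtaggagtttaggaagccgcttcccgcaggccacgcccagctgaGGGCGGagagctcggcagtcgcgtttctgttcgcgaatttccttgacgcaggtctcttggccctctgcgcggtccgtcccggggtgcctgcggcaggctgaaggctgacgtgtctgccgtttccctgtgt
Mgmt: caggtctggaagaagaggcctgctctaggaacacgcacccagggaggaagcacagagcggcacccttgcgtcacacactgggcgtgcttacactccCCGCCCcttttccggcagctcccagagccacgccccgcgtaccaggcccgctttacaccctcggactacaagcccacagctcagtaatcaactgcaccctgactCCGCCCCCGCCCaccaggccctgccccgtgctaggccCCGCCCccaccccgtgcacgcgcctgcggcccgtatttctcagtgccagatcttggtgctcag
P2ry1: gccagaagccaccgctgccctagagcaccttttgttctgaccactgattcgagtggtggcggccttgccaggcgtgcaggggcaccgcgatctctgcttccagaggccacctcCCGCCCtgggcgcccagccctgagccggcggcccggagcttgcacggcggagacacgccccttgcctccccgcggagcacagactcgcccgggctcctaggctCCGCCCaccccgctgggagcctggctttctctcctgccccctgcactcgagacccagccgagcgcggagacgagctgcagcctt
Gm42018: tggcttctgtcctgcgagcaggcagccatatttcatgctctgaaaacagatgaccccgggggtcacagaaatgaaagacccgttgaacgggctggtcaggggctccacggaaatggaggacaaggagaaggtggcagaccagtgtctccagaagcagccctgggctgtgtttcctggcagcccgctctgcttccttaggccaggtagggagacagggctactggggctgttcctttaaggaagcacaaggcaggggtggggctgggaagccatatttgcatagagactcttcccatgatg
The sequences of Ufl1, Mgmt and P2ry1 hold GC boxes and that of Gm42018 has none in this window. Among the 24 promoters at isolated peaks, 9 (37.5%) held a GC box on either strand, against 59.7% of the 11020 promoters at other autosomal peaks and 36.0% of all 31396 autosomal promoters in the RefSeq table. Their median CpG count was 9.5 per promoter, against 19 at other peaks and 7 over all. The motif TGANTCA, bound by AP-1 factors, was in 7 of the 24 (29.2%), the Ufl1 promoter among them, against 7.21% at other peaks and 7.85% over all. CCAAT was in 45.8%, against 37.3% and 37.3%, and TATAAA in 8.33%, against 7.79% and 13.6%. All motifs were searched on both strands, and a match is a description of letters and not a bound site.

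Nuclei were gated by the RNA of the same barcode. Tumour nuclei carried the fixed tumour markers and almost no myeloid, T-cell or NK-cell markers, and numbered 1198 in Sun1_KO and 2166 in Sun1_WT. Myeloid nuclei, which are host cells, numbered 324 in Sun1_KO and 361 in Sun1_WT. The tumour list summed to 5751 and 4388 CPM (UMIs scaled to a total of 1000000) in Sun1_KO and Sun1_WT tumour nuclei, against 254 and 398 CPM in Sun1_KO and Sun1_WT myeloid nuclei; Hmga2 led it, while the epithelial keratins Krt8 and Krt19 were at or near 0. The myeloid list of 18 genes summed to 15678 CPM in Sun1_KO and 22594 CPM in Sun1_WT myeloid nuclei, and to 148 and 138 CPM in Sun1_KO and Sun1_WT tumour nuclei. Fibroblast markers, 6 of 6 detected, summed to 146 CPM in Sun1_KO and 391 CPM in Sun1_WT tumour nuclei, most of it from Dcn at 108 CPM in Sun1_KO and 356 CPM in Sun1_WT, and the part of such RNA in the results was not tested. Sun1 RNA stood at 64.5 CPM (1372 UMIs) in Sun1_KO and 106 CPM (4193 UMIs) in Sun1_WT tumour nuclei, a log2 ratio of -0.71 (-0.80 to -0.62). Where in Sun1 the change lies is not given, so this RNA level does not check the knockout at the DNA. The accessibility tables held 116119669 autosomal counts in Sun1_KO and 169428848 in Sun1_WT tumour nuclei, and 8564027 in Sun1_KO and 9767117 in Sun1_WT myeloid nuclei. Tumour nuclei had a median of 92634 counts in Sun1_KO and 77126.5 in Sun1_WT, and myeloid nuclei 25797 in Sun1_KO and 25997 in Sun1_WT. Mitochondrial RNA was 11.3% in Sun1_KO and 7.01% in Sun1_WT tumour nuclei. With 1 library per genotype no test between genotypes was possible: every ratio is Sun1_KO over Sun1_WT unless said otherwise, 95% intervals cover counting error only, and "called" means past 2-fold by size. Of the recorded accessibility values, 74.98% in Sun1_KO and 75.46% in Sun1_WT were even numbers, so single counts were largely not independent and the intervals are too narrow.

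Isolated peaks did lie in gene-poor DNA. Within 500 kb of a member the annotation had a median of 2 protein-coding genes, against 10 around the other 122979 autosomal peaks, and 130 members (15.8%) had none, against 1.21% of the others. Inside a protein-coding gene lay 246 members (29.8%), against 54.6% of other peaks, and at a promoter 24 (2.91%), against 8.96%. A member outside genes had its nearest gene at a median of 230 kb, against 24.8 kb for other peaks. The nearest neighbouring peak was at a median of 173 kb, against 2.67 kb, which the rule sets. Peak width was alike, with medians of 887 bp for members and 878 bp for other peaks. Chromosomes 1, 3, 4 and 6 held the most members, with 81, 75, 62 and 61.

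They were weak sites. In Sun1_WT tumour nuclei a member had a median of 186 counts (interquartile range 129 to 311), against 450 (181 to 1421) for other peaks. In Sun1_WT myeloid nuclei the median was 3 counts, against 17, and 209 members had no myeloid count in that library. Peaks just inside the limit, with a neighbour at 100 to 110 kb, numbered 94 with a median of 199 Sun1_WT tumour counts, and the 147 just outside it, at 90 to 100 kb, had a median of 206. Their median log2 ratios in tumour nuclei were 0.18 and 0.08.

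Most members were also called as peaks in the Sun1_KO library. A Sun1_KO peak overlapped 706 of 825 (85.6%, 83.0 to 87.9), against a background of 89.7 percent over all autosomal Sun1_WT peaks. The 119 members with no Sun1_KO peak had a median of 135 Sun1_WT tumour counts, against 202 for those with one. At matched Sun1_WT tumour counts the share was no lower than in other peaks: 68.6% against 66.0% at 100 to 150 counts, 93.9% against 85.8% at 200 to 300, and 99.1% against 98.6% at 500 or more. Of the 706, 521 were isolated in the Sun1_KO table too, while 185 had another Sun1_KO peak within 100 kb. A member with no Sun1_KO peak has no Sun1_KO count, so the ratios below rest on the 706.

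In tumour nuclei, isolated peaks took a larger share of the counts in Sun1_KO than in Sun1_WT. The 706 members together held 197311 counts in Sun1_KO and 255840 in Sun1_WT tumour nuclei, which is 1699 CPM in Sun1_KO and 1510 CPM in Sun1_WT (here, counts scaled to 1000000 autosomal peak counts of the class), a log2 ratio of 0.17 (0.16 to 0.18). The other autosomal peaks had a summed log2 ratio of -0.004. Per peak, the 691 members with at least 50 summed counts had a median log2 ratio of 0.16 (0.12 to 0.19, interquartile range -0.13 to 0.44), against 0.02 for other peaks. Above 0 lay 443 of them and below it 248. At least 2-fold higher in Sun1_KO were 30 members (4.34%), where 1.65 percent of all autosomal peaks were, and at least 2-fold lower were 17 (2.46%), where 1.27 percent were, so both tails were fuller than in the background and 93.2% lay within 2-fold. If the 119 members without a Sun1_KO peak, which carry 6.48% of the members' Sun1_WT tumour counts, are set at 0 in Sun1_KO, the summed log2 ratio is 0.07 and the median 0.07, against -0.03 and -0.01 for other peaks treated alike.

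Myeloid nuclei, whose genomes were not edited, showed no such shift at this depth. The members held 9771 counts in Sun1_KO and 11486 in Sun1_WT myeloid nuclei, 1141 CPM in Sun1_KO and 1176 CPM in Sun1_WT, a log2 ratio of -0.04 (-0.08 to -0.005), against -0.06 for other peaks. With each count taken as 0.5 of an independent event, the interval was -0.10 to 0.01. Only 62 members reached 50 summed myeloid counts; their median was -0.06, against -0.05 for other peaks, with none at least 2-fold higher (background 0.838 percent) and 1 at least 2-fold lower (background 2.35 percent). The sign of the summed myeloid ratio turned with the scaling, to 0.01 with TMM and with median-ratio factors. The difference between the classes was not tested.

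**Figure D1:**
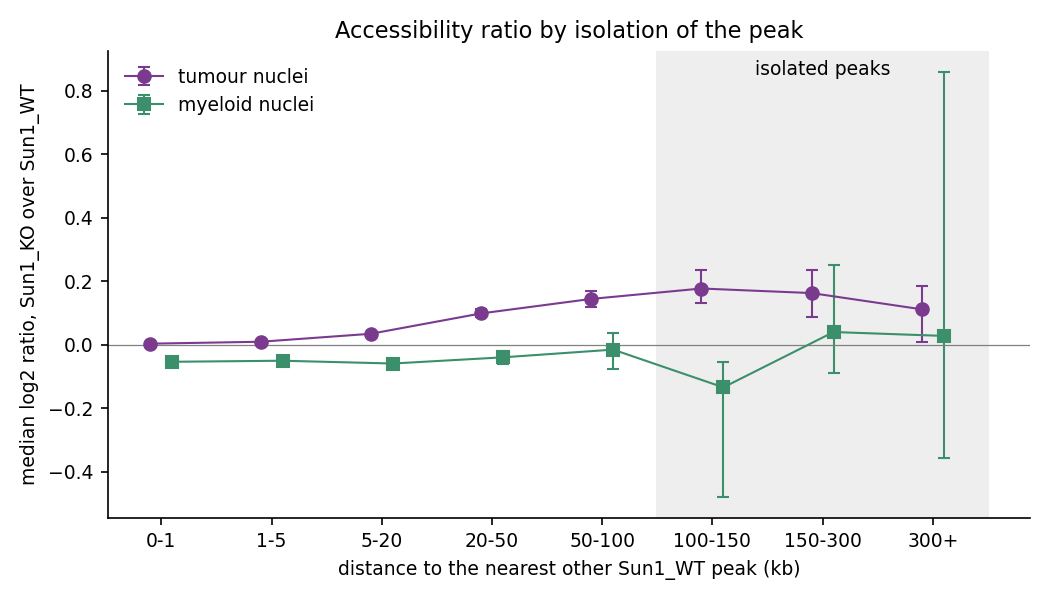
Median log2 ratio of accessibility, Sun1_KO over Sun1_WT (y axis), of Sun1_WT peaks grouped by distance to their nearest other peak (x axis, kb), in tumour nuclei (circles) and myeloid nuclei (squares). Bars are 95% order-statistic intervals of the median over peaks, which are not replicates. The tumour medians go from 0.004 for peaks within 1 kb of another to 0.14 at 50 to 100 kb. Among isolated peaks (grey) the tumour medians are 0.18 under 150 kb, 0.16 at 150 to 300 kb and 0.11 at 300 kb or more. The myeloid medians lie between -0.06 and -0.02 up to 100 kb. Among isolated peaks they run from -0.13 to 0.04, with wide intervals where few peaks are measured.

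The tumour ratio went up with isolation before the limit of 100 kb was reached, as the plot by distance shows. Its median was 0.004 for peaks with a neighbour within 1 kb, 0.01 at 1 to 5 kb, 0.03 at 5 to 20 kb, 0.10 at 20 to 50 kb and 0.14 at 50 to 100 kb. Among isolated peaks it was 0.18 under 150 kb, 0.16 at 150 to 300 kb and 0.11 at 300 kb or more, so it did not go on increasing. In myeloid nuclei the medians up to 100 kb stayed between -0.06 and -0.02. Among isolated peaks the myeloid median was -0.13 (-0.48 to -0.05) under 150 kb, from 23 peaks. It was 0.04 at 150 to 300 kb from 29 peaks and 0.03 at 300 kb or more from 10. The summed myeloid ratio under 150 kb was -0.14 (-0.21 to -0.08).

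Peak strength moved with isolation, so members were set beside other peaks of like counts. At 50 to 200 summed tumour counts the medians were 0.12 for isolated and 0.08 for other peaks. At 200 to 400 they were 0.16 and 0.11, at 400 to 800 0.25 and 0.07, and at 800 or more 0.13 and -0.005. The gap in the median was thus small among the weakest peaks and wider among stronger ones. The share past 2-fold upward was 2.60% of isolated and 2.72% of other peaks at 50 to 200 counts, 2.27% and 2.74% at 200 to 400, 8.38% and 2.88% at 400 to 800, and 4.72% and 0.649% at 800 or more. Isolated peaks had the larger share only in the upper strata, which hold 306 of the 691.

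Within the members the ratio differed by whether the desert was also empty in the Sun1_KO library. This split uses Sun1_KO peak calls, so it is not independent of the Sun1_KO counts in the ratio and cannot serve as support. The 521 peaks isolated in both tables had a summed log2 ratio of 0.09 and a median of 0.13. Of the 516 that passed the count minimum, 12 (2.33%) were past 2-fold upward and 16 (3.10%) downward. Over all autosomal peaks the shares were 1.65 and 1.27 percent. The 185 with a Sun1_KO neighbour within 100 kb had a summed ratio of 0.40 and a median of 0.29. Of the 175 that passed, 18 (10.3%) were higher and 1 (0.571%) lower. Starting from the 824 isolated peaks of the Sun1_KO table in place of the Sun1_WT table, the summed ratio was 0.05 and the median 0.09. Of the 618 that passed, 15 (2.43%) were higher and 21 (3.40%) lower. The median stayed above that of other peaks with either table, while higher members outnumbered lower ones only for the set drawn from the Sun1_WT table and its subset with Sun1_KO neighbours. Members inside protein-coding genes had a median of 0.19, those outside 0.13 and those at promoters 0.15.

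**Figure D2:**
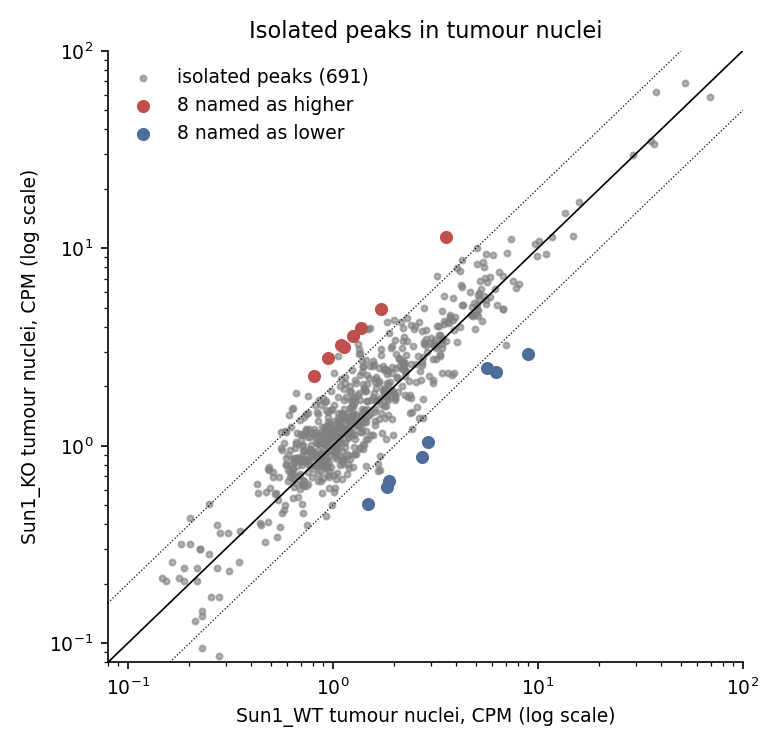
Each point is 1 of the 691 isolated peaks with at least 50 summed counts in tumour nuclei, by its CPM of autosomal peak counts in Sun1_WT (x axis, log scale) and Sun1_KO (y axis, log scale). The solid line is equality and the dotted lines are 2-fold; 30 points lie on or above the upper and 17 on or below the lower dotted line, and the named peaks are coloured.

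Among the higher members, the peak with the largest ratio lay inside Kcnt2, which encodes a sodium-activated potassium channel (chr1:140306038-140306924, positions in mm10 as deposited). It had 1320 counts in Sun1_KO and 603 in Sun1_WT tumour nuclei, or 11.4 CPM in Sun1_KO and 3.56 CPM in Sun1_WT, a log2 ratio of 1.67 (1.54 to 1.82). It was open in 37.4% of Sun1_KO and 12.4% of Sun1_WT tumour nuclei, and had 9 counts in Sun1_KO and 10 in Sun1_WT myeloid nuclei. A peak inside Macrod2, a gene of almost 2000 kb for an ADP-ribosyl hydrolase (chr2:141996851-141997763), had 378 counts in Sun1_KO and 185 in Sun1_WT tumour nuclei, a log2 ratio of 1.57 (1.32 to 1.84). The peak 58.0 kb from Csmd3, a large transmembrane protein gene of the nervous system (chr15:47521699-47522626), had 322 counts in Sun1_KO and 160 in Sun1_WT tumour nuclei, a log2 ratio of 1.55 (1.28 to 1.84). The Gm42018 promoter peak printed above, 92.8 kb from the limb and heart transcription factor gene Tbx5 (chr5:119977995-119978869), had 569 counts in Sun1_KO and 291 in Sun1_WT tumour nuclei and none in myeloid nuclei of either genotype, with a log2 ratio of 1.51 (1.31 to 1.72). A further 3 lay outside genes, 215 kb from Lrrc7, 553 kb from the nuclear receptor gene Hnf4g and 380 kb from D3Ertd751e. The log2 ratios of these peaks were 1.52, 1.47 and 1.47, from 262 to 418 counts in Sun1_KO and 138 to 212 in Sun1_WT tumour nuclei.

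The 8 named lower members had log2 ratios from -1.63 to -1.18. A peak inside Dpp10, which encodes an auxiliary subunit of potassium channels (chr1:123579838-123580736), had 102 counts in Sun1_KO and 462 in Sun1_WT tumour nuclei, or 0.878 CPM in Sun1_KO and 2.73 CPM in Sun1_WT, a log2 ratio of -1.63 (-1.96 to -1.32). The strongest of them, 619 kb from Gprin3 with no protein-coding gene within 500 kb (chr6:60045245-60046159), had 338 counts in Sun1_KO and 1512 in Sun1_WT, a log2 ratio of -1.61 (-1.79 to -1.44), and was open in 11.2% of Sun1_KO and 25.2% of Sun1_WT tumour nuclei. The peak 32.8 kb from Ofcc1 (chr13:40320843-40321767) had 276 counts in Sun1_KO and 1064 in Sun1_WT tumour nuclei, a log2 ratio of -1.40, but 41 counts in Sun1_KO and 32 in Sun1_WT myeloid nuclei, a log2 ratio of 0.54 (-0.16 to 1.26). The other 5 were nearest to Ralyl, Adgrb3, Pcdh17, Tmem161b and Brinp3, at 138 to 2200 kb, with log2 ratios from -1.55 to -1.18. In myeloid nuclei each of those 5 had at most 6 counts in either library.

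The members with the highest level were open in most tumour nuclei. They moved less than the higher and lower members named above, which were picked for large ratios, but not clearly less than members in general. Their log2 ratios ran from -0.25 to 0.70, where the quartiles over members were -0.13 and 0.44. A peak 623 kb from any other, inside Mdga2, which encodes a synaptic adhesion protein (chr12:67058865-67059854), had 7963 counts in Sun1_KO and 8814 in Sun1_WT tumour nuclei, or 68.6 CPM in Sun1_KO and 52.0 CPM in Sun1_WT, a log2 ratio of 0.40 (0.35 to 0.44). It was open in 81.6% of Sun1_KO and 72.5% of Sun1_WT tumour nuclei, and had 56 counts in Sun1_KO and 82 in Sun1_WT myeloid nuclei. Next to the peroxisome gene Pex2 there were 2 such peaks, of which the one inside the gene (chr3:5575829-5576748) had 6782 tumour counts in Sun1_KO and 11741 in Sun1_WT, a log2 ratio of -0.25. The other, 282 kb away from Pex2 (chr3:5860177-5861082), had 7144 in Sun1_KO and 6419 in Sun1_WT, a log2 ratio of 0.70 (0.65 to 0.75), so neighbours on 1 stretch of chromosome 3 lay on opposite sides of 0. The promoter peak of Ufl1 had 3927 counts in Sun1_KO and 6256 in Sun1_WT tumour nuclei, a log2 ratio of -0.13, and that of the zinc finger gene Zfp317 had 4043 in Sun1_KO and 6057 in Sun1_WT, a log2 ratio of -0.04. Both were open in 68.4% to 73.2% of tumour nuclei in each library.

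The 3 most remote members all had ratios above 0, of differing size, and the intervals of 2 of them included 0. The peak 2066 kb from its nearer neighbour, and 425 kb from Slitrk5 (chr14:111249323-111250241), had 243 tumour counts in Sun1_KO and 322 in Sun1_WT, a log2 ratio of 0.14 (-0.11 to 0.38). The one 1188 kb away from any other, with its nearest gene Ankrd7 at 1158 kb (chr6:20037494-20038402), had 921 in Sun1_KO and 687 in Sun1_WT, a log2 ratio of 0.97 (0.82 to 1.11). The one at 1175 kb, with the ephrin receptor gene Epha6 445 kb away (chr16:61055911-61056820), had 93 in Sun1_KO and 130 in Sun1_WT, a log2 ratio of 0.06 (-0.34 to 0.46).

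Per nucleus, both quartiles and the median were higher in Sun1_KO than in Sun1_WT tumour nuclei. The members took a median of 1702 CPM of a Sun1_KO tumour nucleus (interquartile range 1390 to 1993) and 1452 (1171 to 1741) of a Sun1_WT one. Myeloid nuclei had medians of 1076 (846 to 1364) in Sun1_KO and 1111 (906 to 1365) in Sun1_WT. Nuclei are not replicates, and these ranges describe 1 library each.

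**Figure D3:**
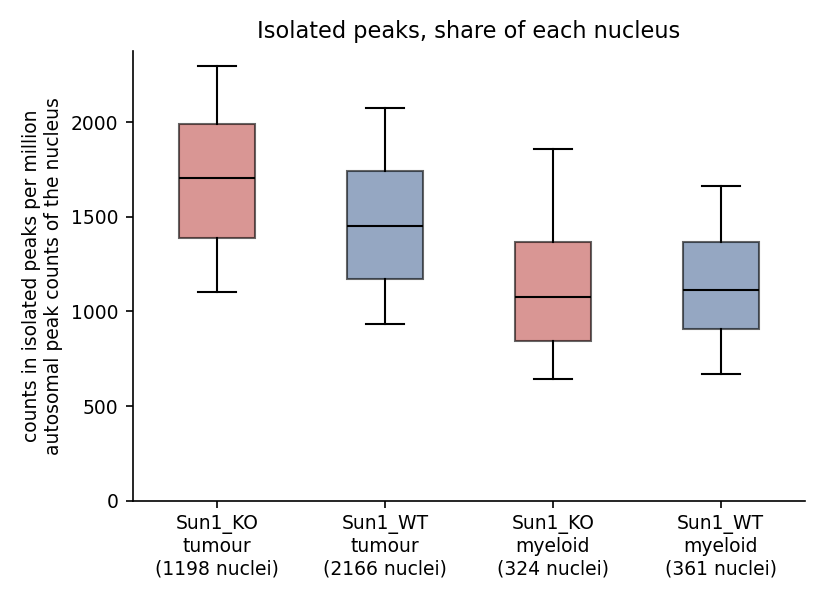
Counts in isolated peaks, scaled to 1000000 autosomal peak counts of the nucleus (y axis), for Sun1_KO and Sun1_WT nuclei of the tumour and myeloid gates. Boxes give the median and quartiles over nuclei and whiskers the 10th and 90th percentiles; the Sun1_KO tumour box (median 1702) sits above the Sun1_WT one (1452), and the myeloid boxes (1076 and 1111) overlap.

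Depth per nucleus differed between the genotypes, and the ratio was read within depth classes. It was 0.24 in tumour nuclei of 10000 to 50000 counts, 0.13 at 50000 to 100000, 0.34 at 100000 to 150000 and 0.12 at 150000 or more. Weak other peaks had 0.08, 0.03, 0.21 and 0.12 in the same classes. The members were taken at every strength, and 306 of them had 400 or more summed tumour counts, so the sets were not matched for strength. At the highest depth both values were 0.12, and whether members stood apart from other peaks of like strength was not tested. The part of depth in the result was not tested beyond these values.

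By chromosome, the median of isolated peaks was above that of the other peaks of the same chromosome on 18 of 19 autosomes. It ranged from -0.02 on chromosome 14 to 0.45 on chromosome 15, against -0.04 to 0.11 for other peaks. Chromosome 10 was the exception, with 0.01 for 42 isolated and 0.04 for other peaks, and on chromosome 14 the medians were equal to 2 decimals. On chromosome 15 the value rests on 22 members, and without that chromosome the median over members was 0.16.

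**Figure D4:**
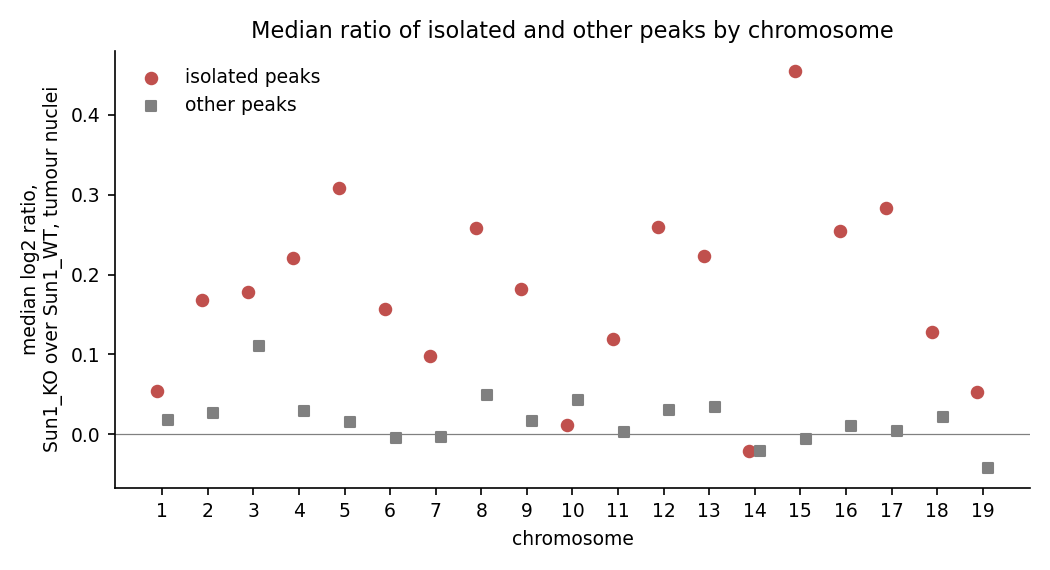
Median log2 ratio of accessibility in tumour nuclei, Sun1_KO over Sun1_WT (y axis), for isolated peaks (circles) and the other peaks (squares) of each autosome (x axis). Isolated peaks lie above the others on 18 of 19 autosomes, least clearly on 14, with the widest gap on 15 and the reverse order on 10.

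Most isolated peaks took a larger share of the counts of tumour than of myeloid nuclei in both genotypes. The median log2 ratio of tumour over myeloid nuclei was 2.40 in Sun1_KO and 1.97 in Sun1_WT, against 0.99 and 0.79 for other peaks. At least 2-fold higher in tumour nuclei were 508 of 688 members in Sun1_KO (73.8%, background 50.1 percent) and 480 of 697 in Sun1_WT (68.9%, background 46.7 percent). At least 2-fold lower were 54 in Sun1_KO (7.85%, background 18.1 percent) and 65 in Sun1_WT (9.33%, background 18.6 percent). In both libraries at once, 438 were higher and 48 lower. Members with no myeloid count numbered 207 in Sun1_KO and 152 in Sun1_WT, so many of these ratios hold a pseudocount. The minimum of 50 tumour plus myeloid counts was passed mainly through tumour counts, with Sun1_WT medians of 186 tumour and 3 myeloid counts per member. Other peaks had medians of 450 and 17. The sets were not matched for strength here, and whether isolated peaks differ from other weak peaks in this was not tested.

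The named tumour-cell sites had no myeloid count in either library, so their folds were taken against a floor of 3 myeloid counts per library. This floor is a convention and not a confidence limit. The peak 534 kb from the RNA helicase gene Ddx18 (chr1:122101992-122103001), with 583 tumour counts in Sun1_KO and 814 in Sun1_WT, was at least 14.3-fold higher in Sun1_KO and at least 15.6-fold higher in Sun1_WT tumour nuclei. The peaks in Armc4 and Sgcd and near Adgra3 and Tox3 were 7.01-fold to 11.5-fold higher in Sun1_KO and 7.23-fold to 12.6-fold higher in Sun1_WT against the same floor. The lower limits of their log2 ratios of tumour over myeloid ran from 2.50 to 3.22 in Sun1_KO and from 2.55 to 3.36 in Sun1_WT. Their log2 ratios between genotypes in tumour nuclei ran from -0.09 to 0.33. Sgcd, a subunit of the sarcoglycan complex of muscle, was also an active gene in these tumour cells, at 445 CPM in Sun1_KO and 421 CPM in Sun1_WT.

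A small set went the other way and marked myeloid chromatin. The Mgmt promoter peak, 351 kb from any other (chr7:136894066-136894964), had 17 counts in Sun1_KO and 39 in Sun1_WT tumour nuclei but 263 in Sun1_KO and 264 in Sun1_WT among the far fewer counts of myeloid nuclei, a log2 ratio of tumour over myeloid of -7.67 in Sun1_KO and -6.86 in Sun1_WT. Mgmt RNA had the same order, at 0.329 CPM in Sun1_KO and 0.101 CPM in Sun1_WT tumour nuclei (7 and 4 UMIs), and 32.3 CPM in Sun1_KO and 44.9 CPM in Sun1_WT myeloid nuclei (52 and 92 UMIs). A peak 311 kb from Ptprc, the CD45 gene of leukocytes (chr1:137751231-137752132), had 28 tumour and 337 myeloid counts in Sun1_KO and 46 tumour and 403 myeloid counts in Sun1_WT, log2 ratios of -7.33 in Sun1_KO and -7.23 in Sun1_WT. The third, inside Plppr4 (chr3:117319507-117320349), had 16 tumour and 131 myeloid counts in Sun1_KO and 39 tumour and 160 myeloid counts in Sun1_WT. The promoter of P2ry1 behaved alike, with 27 tumour and 93 myeloid counts in Sun1_KO and 53 tumour and 71 myeloid counts in Sun1_WT, as did those of Lrig3 and Lsamp, which encode a membrane protein and a neural adhesion protein. All of these had low tumour counts in both genotypes.

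RNA of the genes that hold isolated peaks was higher in Sun1_KO tumour nuclei as well (CPM of genes is per total without mitochondrial genes). Of 217 such protein-coding genes 207 were in the expression tables, and they were long, with a median of 396 kb, against 17.8 kb for other protein-coding genes. Their summed RNA was 4434 CPM in Sun1_KO and 3371 CPM in Sun1_WT, a log2 ratio of 0.40, against -0.01 for other protein-coding genes. A few abundant genes made up most of this gap. Gphn stood at 978 CPM in Sun1_KO and 596 CPM in Sun1_WT, and Fam172a at 564 and 374. Nav3 stood at 531 and 386 and Zfhx3 at 516 and 362, while Cox7c went the other way, at 298 and 403. In Sun1_KO 165 of the 207 had the higher CPM, 38 the lower and 4 had no UMI, while of 20448 other protein-coding genes 10630 were higher, 6272 lower and 3546 without a UMI. Only 59 reached 100 summed UMIs, a minimum that a gene can pass through either library; of these 15 were at least 2-fold higher (25.4%, background 2.3 percent) and 2 at least 2-fold lower (background 2.83 percent). Their median log2 ratio was 0.46, against 0.13 over all genes measured, and with the median gene set at 0 the count was 10 in place of 15. Gene length and level moved with this: among genes of 300 kb or more, 12 of 45 holders (26.7%) and 21 of 256 others (8.20%) were at least 2-fold higher, and 10 of the 15 had 100 to 300 UMIs. With at least 300 UMIs asked for, 5 of 33 were higher. Among genes of 300 kb or more the median log2 ratio was 0.56 for holders and 0.33 for others. At 100 to 300 kb it was 0.27 for 7 holders and 0.29 for 1155 others. Under 100 kb it was -0.03 for 7 holders and 0.11 for 9657 others, so the holders' median was higher only among the longest genes. In myeloid nuclei 17 holders were measured, with a median of 0.16, against 0.08 over all genes.

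**Figure D5:**
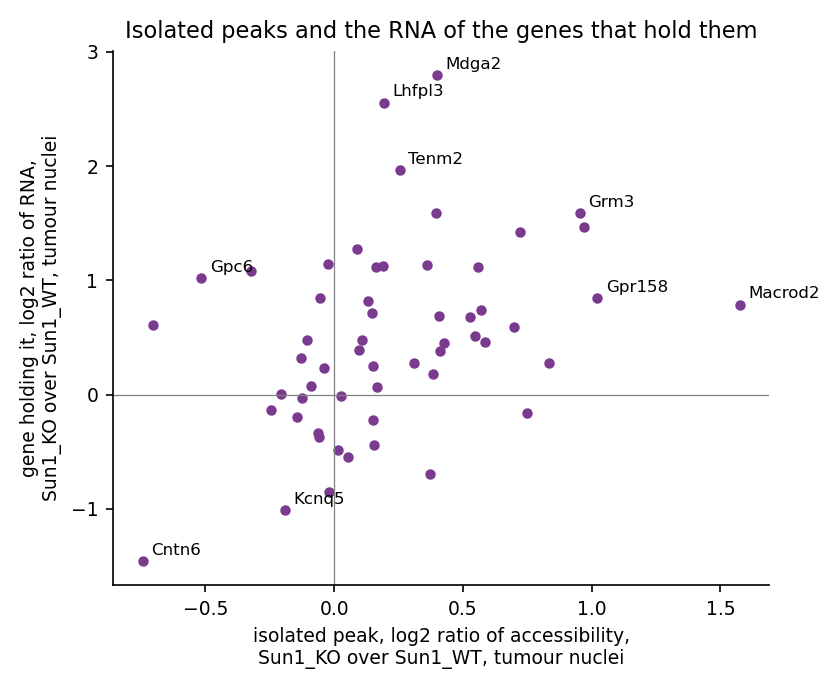
Log2 ratio of an isolated peak in tumour nuclei (x axis; the median where a gene holds several) against the log2 ratio of RNA of the gene that holds it (y axis), both Sun1_KO over Sun1_WT, for the 56 genes with both values. In 31 genes both lie above 0 and in 8 both below it; 7 have only the peak and 10 only the RNA above 0. Most peaks and most RNA ratios lie above 0 when taken separately, so many genes would have both above 0 without a link. A link between peak and RNA was not tested.

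Among the genes named with their peaks, Csmd3 had 996 UMIs in Sun1_KO and 383 in Sun1_WT tumour nuclei, 46.9 CPM in Sun1_KO and 9.66 CPM in Sun1_WT, a log2 ratio of 2.28 (2.11 to 2.45). Macrod2 had 3138 UMIs in Sun1_KO and 3391 in Sun1_WT, 148 CPM in Sun1_KO and 85.5 CPM in Sun1_WT, a log2 ratio of 0.79 (0.72 to 0.86), and Kcnt2, under the minimum of 100, had 36 UMIs in Sun1_KO and 14 in Sun1_WT, a log2 ratio of 2.23 (1.34 to 3.27). Mdga2, which holds the strongest isolated peak by CPM in Sun1_KO, had 102 UMIs in Sun1_KO and 27 in Sun1_WT, a log2 ratio of 2.80 (2.19 to 3.49), far beyond that of its peak. At the other higher peaks, Lrrc7 had 35 UMIs in Sun1_KO and 82 in Sun1_WT, a log2 ratio of -0.32 (-0.94 to 0.26), Hnf4g had 1 and 7 UMIs in Sun1_KO and Sun1_WT, D3Ertd751e had a log2 ratio of 0.54 (0.34 to 0.73), and Tbx5 had no UMI in either. Dpp10, whose peak was lower, had 26 UMIs in Sun1_KO and 26 in Sun1_WT, a log2 ratio of 0.90 (0.06 to 1.74), so its RNA did not go with the peak. Ofcc1, near another lower peak, had 13 UMIs in Sun1_KO and 57 in Sun1_WT, a log2 ratio of -1.19 (-2.23 to -0.35), on the same side as its peak. Tmem161b, 243 kb from a lower peak, stood at 70.8 CPM in Sun1_KO and 52.2 CPM in Sun1_WT. The other genes at lower peaks, Gprin3, Ralyl, Adgrb3, Pcdh17 and Brinp3, had at most 12 UMIs in Sun1_KO and 16 in Sun1_WT, and all their intervals included 0.

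Other holders were chosen after their values were seen. Grm3, a metabotropic glutamate receptor gene, had 1859 UMIs in Sun1_KO and 1153 in Sun1_WT tumour nuclei, a log2 ratio of 1.59 (1.48 to 1.70), and its peak 0.95. Tenm2, a teneurin adhesion gene with 3 isolated peaks, had 187 UMIs in Sun1_KO and 89 in Sun1_WT, a log2 ratio of 1.97. Gpc6, a glypican gene, had an RNA ratio of 1.02 and a peak ratio of -0.52. In the other direction, Cntn6, a contactin gene of neural adhesion, had 74 UMIs in Sun1_KO and 381 in Sun1_WT, a log2 ratio of -1.46 (-1.84 to -1.10), with its peak at -0.74. Kcnq5, a potassium channel gene, had 106 UMIs in Sun1_KO and 400 in Sun1_WT, a log2 ratio of -1.01, with its peak at -0.19.

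The long neural adhesion and synaptic genes were the list that met the deserts most often. Of its 51 measured genes 30 held or lay within 100 kb of 44 isolated peaks, of which 35 passed the count minimum. Of these, 26 lay above 0 and 9 below; the median was 0.24, and 4 were past 2-fold upward and 1 downward, where 1.65 and 1.27 percent of all autosomal peaks were. In RNA, 32 of its genes passed, 11 of them past 2-fold upward and 1 downward, where 2.3 and 2.83 percent of all genes were; their median was 0.65, against 0.13 over all genes. Of protein-coding genes of 300 kb or more that hold no isolated peak, 8.20% were past 2-fold upward and 3.52% downward, with a median of 0.33. The list was chosen with earlier results of these data known, so its counts describe these genes and cannot serve as support. Of its most expressed members, Lrp1b, a giant lipoprotein receptor gene, stood at 114 CPM in Sun1_KO and 52.4 CPM in Sun1_WT, a log2 ratio of 1.13, with its 2 peaks at -0.08 and 0.46. Cntnap2, a contactin-associated protein gene, went the other way at 97.1 CPM in Sun1_KO and 142 CPM in Sun1_WT, a log2 ratio of -0.54, with peaks at 0.04 and 0.05. Pcdh15, a protocadherin gene of the inner ear, had 36.8 CPM in Sun1_KO and 51.5 CPM in Sun1_WT, a log2 ratio of -0.48, with its peak at 0.01.

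Olfactory and vomeronasal receptor genes, which lie in large clusters and are silent outside sensory neurons, gave another picture. Isolated peaks lay within 100 kb of 34 of them, 1 peak each, with 3 of the peaks inside the gene. The 31 peaks that passed had a median of 0.003, 16 being above 0 and 15 below it. None was past 2-fold, where 1.65 percent of all autosomal peaks were upward and 1.27 percent downward. Only 19 of the 1466 receptor genes reached 100 UMIs; 7 were at least 2-fold higher in RNA, where 2.3 percent of all genes and 11.5% of other protein-coding genes of 100 to 300 UMIs were. Their median was 0.72, and these genes are near-identical copies whose reads may be split. Vmn2r38, the one with most UMIs near an isolated peak, had 96 in Sun1_KO and 88 in Sun1_WT, a log2 ratio of 1.02. The isolated peak within 100 kb of Vmn2r38 was at 0.25, but it lies outside that gene and overlaps the promoter of Zfp419. Olfr1033 had 36 UMIs in Sun1_KO and 16 in Sun1_WT with its peak at 0.08, and the peaks near Olfr1217 and Olfr784 were at -0.55 and -0.12.

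The remaining lists touched few isolated peaks. Of the developmental transcription factors, Zfhx3, Tshz2 and Foxp2 were at 5 isolated peaks, of which 3 passed: Tshz2, with 842 counts in Sun1_KO and 547 in Sun1_WT tumour nuclei, had a log2 ratio of 1.17, Zfhx3 0.55 from 25 counts in Sun1_KO and 25 in Sun1_WT, and Foxp2 -0.22. Zfhx3 RNA stood at 516 CPM in Sun1_KO and 362 CPM in Sun1_WT, a log2 ratio of 0.51; of 21 factors measured 2 were past 2-fold upward in RNA and 0 downward (2.3 and 2.83 percent over all genes), and the median was 0.37. Cadherins had 4 peaks that passed, all above 0 with a median of 0.15, from 0.04 at Cdh12 to 0.55 at Cdh10, while 8 of the genes measured had no RNA past 2-fold and a median of 0.16. Cdh11, at 2.59 CPM in Sun1_KO and 2.04 CPM in Sun1_WT, and Cdh19, with 10 UMIs in all, were near members that did not pass. The 16 genes of the LINC complex and lamina tethers and the 12 H3K9 and heterochromatin factors had no isolated peak. None of them was past 2-fold in RNA, and their medians were 0.10 and 0.19, against 0.13 over all genes.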

How the data were processed

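Tables of counts were deposited by the authors: UMIs per gene and nucleus for expression, and counts per peak and nucleus for accessibility, on mm10. FastQC, Seurat, Signac, Cell Ranger and Cell Ranger ARC are listed in the submitters' processing notes, without an order or versions. The authors' deposited table of gene comparisons was not used, and 0 columns were left unmapped.

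Nuclei under 500 UMIs or 300 genes, or with more than 20% mitochondrial UMIs, were left out (232 in Sun1_KO, 110 in Sun1_WT). Tumour and myeloid nuclei needed 5 UMIs from 3 of the class's markers. Tumour nuclei had at most 10% myeloid, T-cell and NK-cell UMIs and at most 1 Xist UMI; myeloid nuclei had at least 80% myeloid UMIs of both lists. No doublet caller was run; the gate leaves out nuclei with mixed markers. The libraries shared 12 barcodes, and nuclei of 1 library were never joined to those of the other.

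Counts were summed per class and library and divided by the autosomal peak total (RNA: total without mitochondrial genes). Log2 ratios used a pseudocount of 0.5 and a minimum of 50 summed counts (RNA: 100). Intervals were exact binomial for shares, exact conditional binomial for ratios and order-statistic for medians. Gene positions and promoters came from RefSeq GRCm38.p6. Peaks named were the 8 higher and 8 lower by the interval bound nearest 1, the 5 of highest level, the 5 highest and 3 lowest in tumour over myeloid, and the 3 farthest from another peak; genes named were the nearest to these and up to 4 per list. One peak of the 8 higher is not reported here. The members, lists and rules were chosen with earlier results of these data known. Alternatives were 19 planned settings, each autosome left out in turn and 9 settings added after seeing the data. Ratios were tested on simulated data. Python 3.11.15, numpy 2.4.6, scipy 1.17.1 and pandas 2.3.3 were used, and edgeR 4.0.16 (R 4.3.3) gave the TMM factors.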

Additional observations from a re-analysis of the deposited data

Results flagged for a closer look

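The summed log2 ratio of isolated peaks lay above 0 in tumour nuclei (0.17, 1699 CPM in Sun1_KO and 1510 CPM in Sun1_WT) and below 0 in myeloid nuclei (-0.04, 1141 CPM in Sun1_KO and 1176 CPM in Sun1_WT), a difference of 0.21, and it was picked out because the cell classes lay on opposite sides of 0. With 1 library per genotype the difference was not tested. The other autosomal peaks had -0.004 in tumour and -0.06 in myeloid nuclei, and the myeloid value of the isolated peaks was 0.01 with TMM and with median-ratio scaling.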

How the results depend on the processing

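No paired analysis was possible because each genotype had 1 library. Over 262 values under alternatives, 9 lay on the other side of 0 from the main value, all of them myeloid ratios; the cause was not tested in any case. In tumour nuclei the summed log2 ratio (0.17) was above 0 in 38 of 38 and the median (0.16) in 41 of 41 alternatives. The summed ratio was 0.15 with median-ratio or TMM scaling, relative to peaks within 2 Mb, with deserts of 200 kb and with the stricter gate, 0.16 without chromosome 15, 0.19 with nuclei weighted equally and without the 10 strongest members, 0.21 binarised, 0.11 with deserts of 50 kb, 0.091 for peaks isolated in both tables, 0.048 from the Sun1_KO table, 0.13 in nuclei with 50000 to 100000 counts and 0.0737 with members lacking a Sun1_KO peak set at 0. The median was 0.22 binarised, 0.087 from the Sun1_KO table, 0.0611 in nuclei with 50000 to 100000 counts (other peaks -0.002) and 0.0691 with the missing members at 0. The summed myeloid ratio (-0.04) turned to 0.0104 with TMM, 0.0094 with median-ratio scaling, 0.0239 with nuclei weighted equally and 0.00781 with deserts of 200 kb, and was -0.0895 from the Sun1_KO table; the myeloid median (-0.06, interval including 0) was 0.077 with deserts of 200 kb, 0.05 relative to peaks within 2 Mb, 0.005 with nuclei weighted equally and 0.04 both for peaks isolated in both tables and from the Sun1_KO table. The 30 members at least 2-fold higher (4.34%) became 79 with deserts of 50 kb (4.21% of 1877) and 11 with 200 kb (3.91% of 281). They became 12 isolated in both tables (2.33% of 516), 15 from the Sun1_KO table (2.43% of 618) and 50 with nuclei weighted equally (7.24% of 691). Over all autosomal peaks 1.65 percent were higher and 1.27 percent lower in the main setting. The 17 lower (2.46%) became 37 with deserts of 50 kb (1.97%) and 9 with 200 kb (3.20%). They became 10 binarised (1.45%) and 32 in nuclei with 50000 to 100000 counts (4.83% of 662). The share with a peak in the other library was 75.7% from the Sun1_KO table. Of genes holding an isolated peak, 5 in place of 15 were at least 2-fold higher in RNA with 300 UMIs asked for. Leaving out 1 chromosome at a time gave 0.15 to 0.18 for the summed and 0.15 to 0.17 for the median tumour ratio, -0.07 to -0.03 and -0.06 to -0.008 for the myeloid ones, 25 to 30 higher and 14 to 17 lower members and 85.1% to 85.9% with a Sun1_KO peak. Depth left 62 members with 50 counts in myeloid nuclei.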
